A study of Homo sapiens with 6 samples.

Results

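The genes described here are 6 transporters that carry ascorbate (vitamin C) or glucose into cells, chosen by name as 6 of 19970 protein-coding genes: SLC23A1, SLC23A2, SLC2A1, SLC2A2, SLC2A3 and SLC2A4. For each gene, every called island of H3K4me3 or H3K27me3 that touched its GRCh38 span or the 10 kb on either side was read. An island is a stretch of neighbouring 200 bp windows that the authors' caller found enriched. All cells were GATA2+ endothelial cells made from H1, an established human embryonic stem cell line, under the conditions labelled Vc+ and Vc-. The series title names vitamin C. Its dose and the days of exposure are not given in the sources used here. Of 6 samples, 4 had an island list: H3K4me3 Vc+, H3K4me3 Vc-, H3K27me3 Vc+ and H3K27me3 Vc-. The 2 inputs were not analysed here.

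Each group was 1 library, so no replicate error, test or p-value is available. Every difference below is a difference between 2 lists. File names in the deposit swap Vc+ and Vc- relative to the sample titles. The titles call all cells GATA2+, while the written design also mentions reporter-negative cells. Condition names below follow the titles, and every direction between conditions depends on that choice. On chromosomes 1 to 22 and X there were 21991 and 22307 H3K4me3 islands (Vc+ and Vc-) and 9639 and 8990 H3K27me3 islands. The median H3K4me3 width was 1.8 kb in Vc+ and 1.6 kb in Vc-, and the median H3K27me3 width was 4.0 kb in Vc+ and 3.2 kb in Vc-. Read depth is unknown from these lists. As a check of the labelled cell type, all 9 endothelial markers examined, among them KDR, TEK and CDH5, had H3K4me3 at the gene start in both conditions, against 70.7% of all genes. H3K27me3 was also called at the start of 3 of the 9 in Vc+ (CDH5, ERG and ESAM) and of 2 in Vc- (ERG and ESAM), against 16.4% of all genes in Vc+ and 15% in Vc-. For PECAM1, CDH5 and ESAM no annotated start was available, and either end of the gene span counted as a start. At CDH5 in Vc+ and at ESAM in Vc-, the H3K27me3 island lay at the other span end from the widest H3K4me3 start island. The widest start islands of the 2 marks did not overlap at CDH5 in Vc+, at ESAM in Vc- or at ERG in either condition. They overlapped at ESAM in Vc+. H3K4me3 in both conditions was found likewise at 1 of 5 blood, 2 of 4 pluripotent and 3 of 4 mesenchymal markers. H3K27me3 in both conditions was called at 0 of 5 blood, 1 of 4 pluripotent (SOX2) and 1 of 4 mesenchymal markers (TWIST1), against 13.8% of all genes. SOX2 and TWIST1 thus carried both marks, and the H3K27me3 island at SOX2 was 33.8 kb wide in Vc+ and 40.2 kb in Vc-.

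Humans cannot make ascorbate and take it up in 2 forms. The SLC23 proteins SVCT1 (SLC23A1) and SVCT2 (SLC23A2) carry reduced ascorbate together with sodium, SVCT1 mostly in absorbing epithelia such as gut and kidney and SVCT2 in most other tissues. The SLC2 proteins GLUT1 to GLUT4 (SLC2A1 to SLC2A4) let glucose pass down its gradient, and GLUT1, GLUT3 and GLUT4 also carry dehydroascorbate, the oxidised form, which cells reduce back to ascorbate. GLUT1 is the main glucose carrier of endothelium, GLUT2 serves liver and pancreatic beta cells, GLUT3 is a high-affinity carrier best known from neurons, and GLUT4 is the insulin-responsive carrier of muscle and fat. H3K4me3 typically sits at the starts of genes that are active or ready for activity, and H3K27me3 is placed by Polycomb repressive complex 2 at genes held silent.

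The promoters of SLC2A1 and SLC2A2 are printed to show a start with an H3K4me3 island across it (SLC2A1) beside one whose nearest island stopped short of it (SLC2A2). Of the 6 genes, 3 had an entry in the RefSeq promoter table (GRCh38.p14): SLC23A1, SLC2A1 and SLC2A2. Shown are the 250 bases before each start, read 5′ to 3′ on the minus strand, with CpG dinucleotides in capitals.
SLC2A1, chr1:42958869-42959118: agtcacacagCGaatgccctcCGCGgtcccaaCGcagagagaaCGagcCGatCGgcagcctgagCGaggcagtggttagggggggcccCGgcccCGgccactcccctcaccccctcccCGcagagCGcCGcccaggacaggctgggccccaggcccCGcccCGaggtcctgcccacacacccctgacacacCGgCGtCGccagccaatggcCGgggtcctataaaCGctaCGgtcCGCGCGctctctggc
SLC2A2, chr3:171026721-171026970: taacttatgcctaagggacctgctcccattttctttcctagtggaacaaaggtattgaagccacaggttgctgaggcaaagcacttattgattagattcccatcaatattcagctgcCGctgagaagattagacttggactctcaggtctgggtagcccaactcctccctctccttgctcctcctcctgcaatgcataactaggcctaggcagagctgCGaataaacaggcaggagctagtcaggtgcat

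The SLC2A1 stretch held 24 CpG dinucleotides with a GC content of 72.4%, and the SLC2A2 stretch held 2 with 48.8%. The stretch before the SLC23A1 start held 5 with 54.4%. It lies inside the gene span, 2.38 kb from its higher-coordinate end, and is not printed. Over 22131 promoters of protein-coding genes the median was 16 CpG and 62% GC. A window of 1 kb on either side of the start overlapped an H3K4me3 island in 96.9% (Vc+) and 96.7% (Vc-) of promoters with over 15 CpG, but in 17.4% and 17.1% of those with 0 to 5 CpG. The SLC2A1 start had such an island and the SLC2A2 and SLC23A1 starts had none, so each of these 3 genes fell with the majority of its CpG class. Letters of 3 known motifs were searched on both strands of these stretches. TATAAA, the core of a TATA box, was found in the SLC2A1 stretch at 31 to 26 bases before the start. At any position and on either strand, these letters were in 9% of all promoters.

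The core of a hypoxia response element, ACGTG, was in none of the 3 stretches, SLC2A1, SLC2A2 or SLC23A1, and in 20.2% of all promoters.

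The letters AGATAA, which GATA factors are known to bind, were likewise in none of the 3 stretches and in 7.09% of all promoters.

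**Figure D1:**
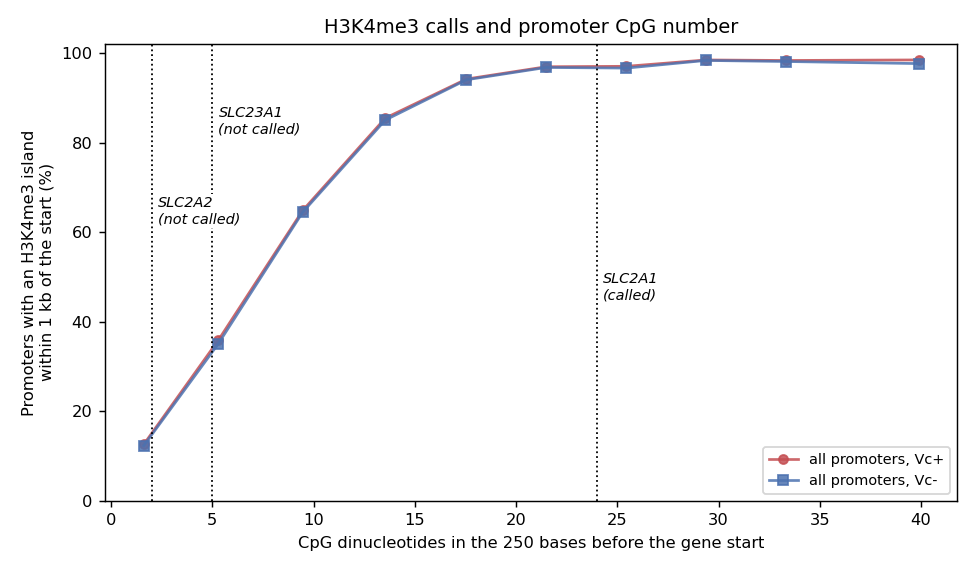
The share of promoters with an H3K4me3 island within 1 kb of the start (vertical axis, percent) is plotted against the number of CpG dinucleotides in the 250 bases before the start (horizontal axis), for all 22131 promoters grouped by CpG number, in Vc+ (circles) and Vc- (squares). Dotted lines mark SLC2A2 with 2 CpG and SLC23A1 with 5, both without a call, and SLC2A1 with 24, with a call. The curves of the 2 conditions nearly coincide.

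All 6 transporters had an H3K4me3 island somewhere in the span or its 10 kb flanks in both conditions, against 80.3% of all genes in Vc+, 80.2% in Vc- and 79.3% in both. With no flank the count was 4 of 6 in each condition. Of all genes, 24.8% in Vc+ and 25% in Vc- had no H3K4me3 island in the span. The only H3K4me3 island in the SLC23A1 window lay at the start of a neighbouring gene, PROB1. The calls differed once the gene start was considered. Only SLC2A1, SLC2A3 and SLC2A4 had H3K4me3 within 1 kb of the start in both conditions. That is 3 of 6, against 71.9% of all genes in Vc+, 71.5% in Vc- and 70.7% in both. For SLC23A2, SLC2A3 and SLC2A4 the promoter table had no entry, and either end of the span counted as a start. H3K27me3 lay at the start of 0 of 6 transporters in either condition, against 16.4% of all genes in Vc+ and 15% in Vc-. In the wider window it was found at SLC23A1 and SLC2A4 in both conditions, 2 of 6 against 26.5% (Vc+), 23.8% (Vc-) and 21.5% (both), and each time at a neighbouring gene. No transporter was called in 1 condition alone. Over all genes, H3K4me3 in the flanked span was called in Vc+ alone at 0.946% and in Vc- alone at 0.901%, and H3K27me3 in Vc+ alone at 4.97% and in Vc- alone at 2.3%. Because the gene table lists whole spans, an island inside a gene is not placed in an exon, an intron or a UTR.

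**Figure D2:**
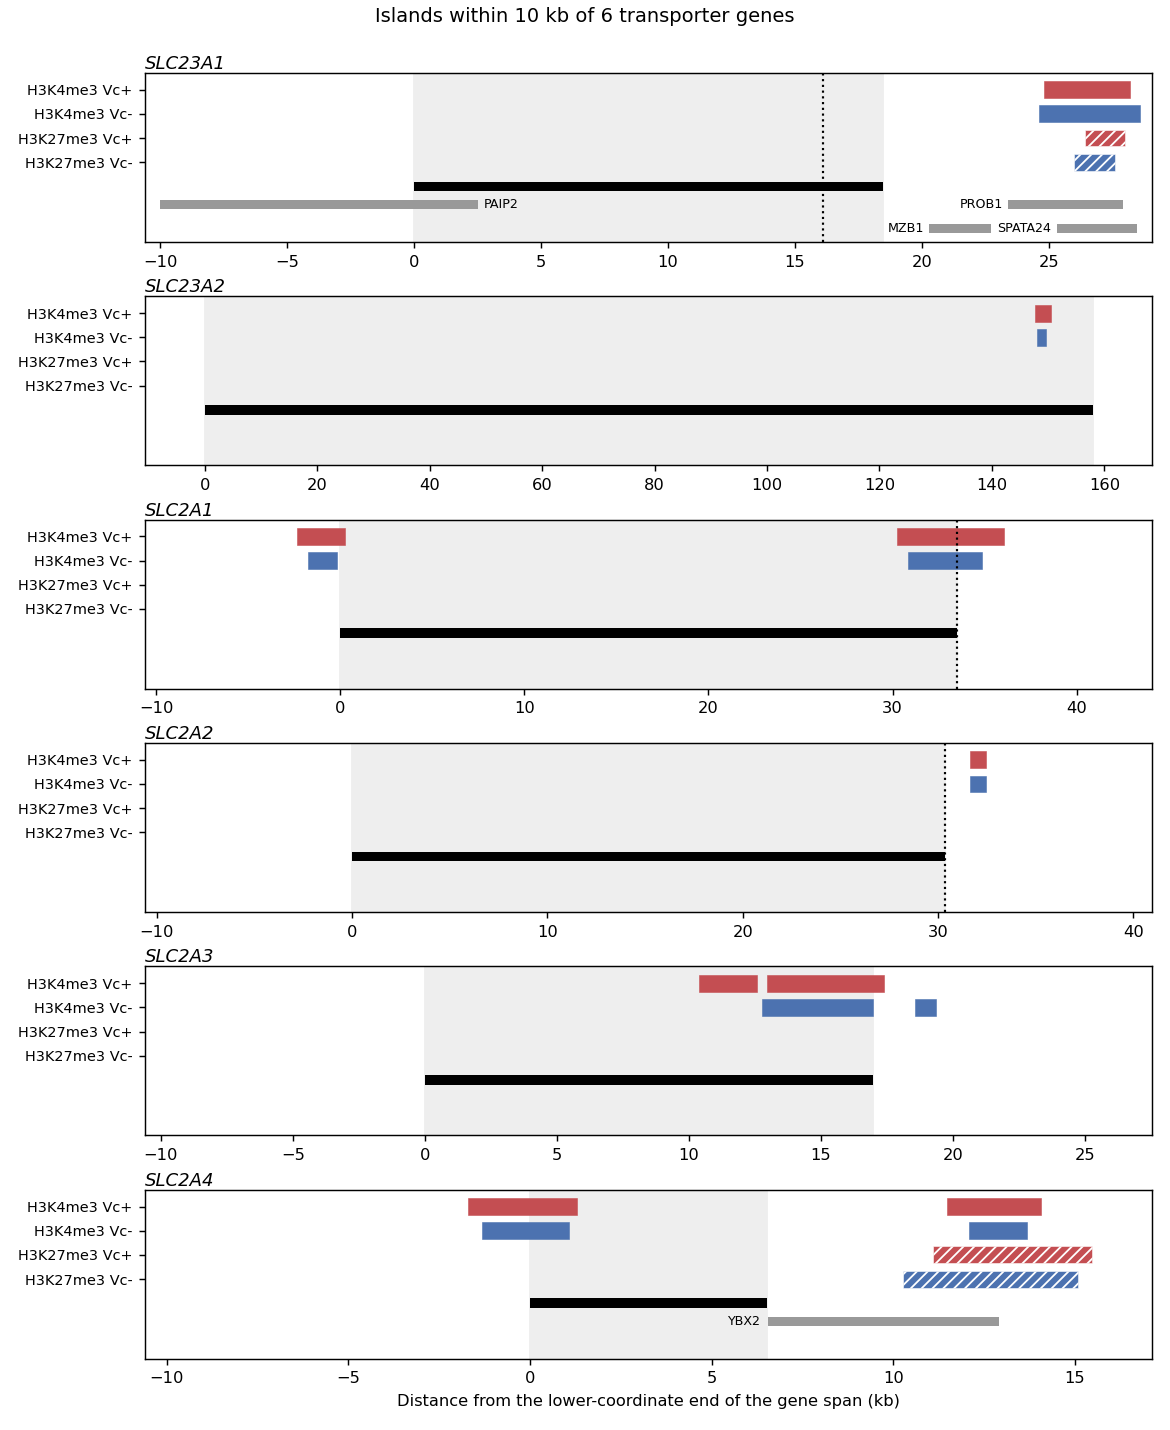
Each panel shows 1 transporter as a black bar, with its neighbouring protein-coding genes in grey and trimmed at 10 kb, against the distance from the lower-coordinate end of its span (kb). Solid blocks are H3K4me3 islands and hatched blocks H3K27me3 islands, with Vc+ in red above Vc- in blue, and a dotted line marks the start given by the promoter table. H3K4me3 lies across an end of SLC2A1, SLC2A3 and SLC2A4, inside SLC23A2, and outside SLC2A2 and SLC23A1, while H3K27me3 touches none of the 6 genes.

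SLC23A2 (gene 9962, chromosome 20, 4852358 to 5010313) encodes SVCT2, the ascorbate carrier of most tissues. Its 158 kb span and flanks held 1 H3K4me3 island in each condition. The island ran from 5000001 to 5002800 in Vc+ and from 5000401 to 5002000 in Vc-, so it measured 2.8 kb in Vc+ and 1.6 kb in Vc-. It lay inside the gene, 7.51 kb from the higher-coordinate end in Vc+ and 8.31 kb in Vc-, and about 148 kb from the other end, so it was not counted as a start. Whether a shorter SLC23A2 transcript begins there was not tested. The Vc+ island reached past the Vc- island by 400 bp on one side and 800 bp on the other. The authors' score, read as a false discovery rate on the −log10 scale, was 71.8 in the Vc+ list, where 51.2% of islands scored no higher. In the Vc- list it was 138, where 72.3% scored no higher. Scores depend on depth and width, and those of different lists are not compared. No H3K27me3 island lay within 303 kb of SLC23A2 in either condition, and the nearest was at PROKR2.

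SLC23A1 (gene 9963, chromosome 5, 139367196 to 139385676) encodes SVCT1, the epithelial ascorbate carrier. No island of either mark touched its span or its annotated start at 139383297 in any library. The islands in its flank lay at the start of PROB1 at 139395104. H3K4me3 ran there from 139392001 to 139395400 in Vc+ (3.4 kb) and from 139391801 to 139395800 in Vc- (4 kb). The nearer edge was 8.7 kb from the SLC23A1 start in Vc+ and 8.5 kb in Vc-. H3K27me3 covered 1.6 kb of the same stretch in each condition, at 139393601 to 139395200 in Vc+ and 139393201 to 139394800 in Vc-. All of it lay within the H3K4me3 island, so both marks were called at PROB1 and neither at SLC23A1. The 2 ascorbate carriers therefore both lacked a start call, though for SLC23A2 only the span ends could be tested. They differed in that SLC23A2 held H3K4me3 inside the gene and SLC23A1 did not.

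SLC2A1 (gene 6513, chromosome 1, 42925353 to 42958868) encodes GLUT1. The island across its start ran from 42955601 to 42961400 in Vc+ and from 42956201 to 42960200 in Vc-. It was 5.8 kb wide in Vc+, as wide as or wider than 97.9% of the islands of that list, and 4 kb in Vc-, where the share was 94.4%. In Vc+ it reached 2532 bp upstream and 3267 bp downstream of the start, and in Vc- 1332 bp upstream and 2667 bp downstream. The upstream part overlapped SLC2A1-DT, a long non-coding RNA gene annotated from 42959049. A second H3K4me3 island lay at the far end of the gene, from 42923001 to 42925600 in Vc+ (2.6 kb, score 52.3) and from 42923601 to 42925200 in Vc- (1.6 kb, score 108). The Vc+ island crossed the gene end and the Vc- island stopped 0.153 kb short of it. Neither overlapped the start window of a protein-coding gene, and the distance to the SLC2A1 start was 33.3 kb in Vc+ and 33.7 kb in Vc-. No H3K27me3 lay within 271 kb of SLC2A1 in either condition.

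SLC2A3 (gene 6515, chromosome 12, 7919230 to 7936187) encodes GLUT3 and carried the highest-scoring H3K4me3 island of the 6 transporters in each list. At the higher-coordinate end the island ran from 7932201 to 7936600 in Vc+ (4.4 kb) and from 7932001 to 7936200 in Vc- (4.2 kb). Both had the top score of 1000, which 569 islands (2.59%) shared in the Vc+ list and 819 (3.67%) in the Vc- list. The edges differed by 200 bp at one side and 400 bp at the other. Each condition had a further island that the other lacked. In Vc+ an island of 2.2 kb lay at 7929601 to 7931800, separated by 400 bp from the main island, and scored 6.28. In Vc- an island of 0.8 kb lay outside the gene at 7937801 to 7938600 and scored 9. Both were among the weaker islands, since only 7.18% of the Vc+ list and 11% of the Vc- list scored no higher. Neither reached a score of 10, and both were gone when that minimum was set. Joining islands less than 1 kb apart gave a width of 7000 bp in Vc+ and left the 4200 bp in Vc-.

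SLC2A4 (gene 6517, chromosome 17, 7281718 to 7288257) encodes GLUT4, the insulin-responsive carrier. H3K4me3 covered its lower-coordinate end from 7280001 to 7283000 in Vc+ (3 kb, score 78.5) and from 7280401 to 7282800 in Vc- (2.4 kb, score 56.4). In Vc+ 53.8% of the list scored no higher, and in Vc- 43.5%, near the middle of each list. At the other side, YBX2 ends 0.006 kb from SLC2A4, and its start at 7294639 carried both marks. H3K27me3 ran there from 7292801 to 7297200 in Vc+ (4.4 kb) and from 7292001 to 7296800 in Vc- (4.8 kb). The gap between this island and the SLC2A4 span was 4.54 kb in Vc+ and 3.74 kb in Vc-. The H3K4me3 island at YBX2 was 2.6 kb in Vc+ and 1.6 kb in Vc-, and it covered 59.1% of the H3K27me3 island in Vc+ and 33.3% in Vc-. The end of SLC2A4 with H3K4me3 had no H3K27me3 in either list.

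SLC2A2 (gene 6514, chromosome 3, 170996347 to 171026720) encodes GLUT2, the carrier of liver and beta cells. It had no island within its span. A small H3K4me3 island lay 1.28 kb upstream of the start with the same edges in both conditions, 171028001 to 171028800. Its 0.8 kb was narrow for either list, since 11.6% of islands in Vc+ and 17.3% in Vc- were no wider. The score was 38.6 in the Vc+ list and 49 in the Vc- list, above the minimum of 10 in both. It fell outside the window of 1 kb and inside one of 2 kb, which would bring the transporters called at the start to 4 of 6 in each condition. The nearest H3K27me3 island was 406 kb away in Vc+ and 405 kb in Vc-, at SLC7A14. SLC2A2 and SLC23A1 were the transporters with neither mark at the start or anywhere in the span.

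The widths of the H3K4me3 islands were then set side by side. The windows of the 6 genes held 8 H3K4me3 islands that overlapped exactly 1 island in the other condition. The Vc+ island was wider at 6, equal at 1 (SLC2A2) and narrower at 1 (PROB1, near SLC23A1), and at 5 of the 8 both edges lay further out in Vc+. Over the whole lists the Vc+ island was wider in 54.1% of 18432 such pairs and spanned the Vc- island in 44.7%, and the median difference was 200 bp, which is 1 calling window. At gene starts the widest island was wider in Vc+ at 3 of 3 transporters called in both conditions, against 57.5% of 14121 genes. The difference was 1.8 kb at SLC2A1, 0.6 kb at SLC2A4 and 0.2 kb at SLC2A3, against a median of 0.2 kb over these genes. A smaller difference was found at 96.6% of them for SLC2A1, at 71.1% for SLC2A4 and at 42.5% for SLC2A3. Of the 2 matched H3K27me3 islands, at PROB1 and YBX2, 0 were wider in Vc+, against 64.7% of 4901 pairs. The Vc+ lists had the wider median, and without a second library per condition the spread of an island edge between cultures is not known. Cutting the Vc+ list to the covered length of the Vc- list drops whole low-scoring islands and trims no edges. It could not change the widths at these 3 starts and says nothing about the difference.

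**Figure D3:**
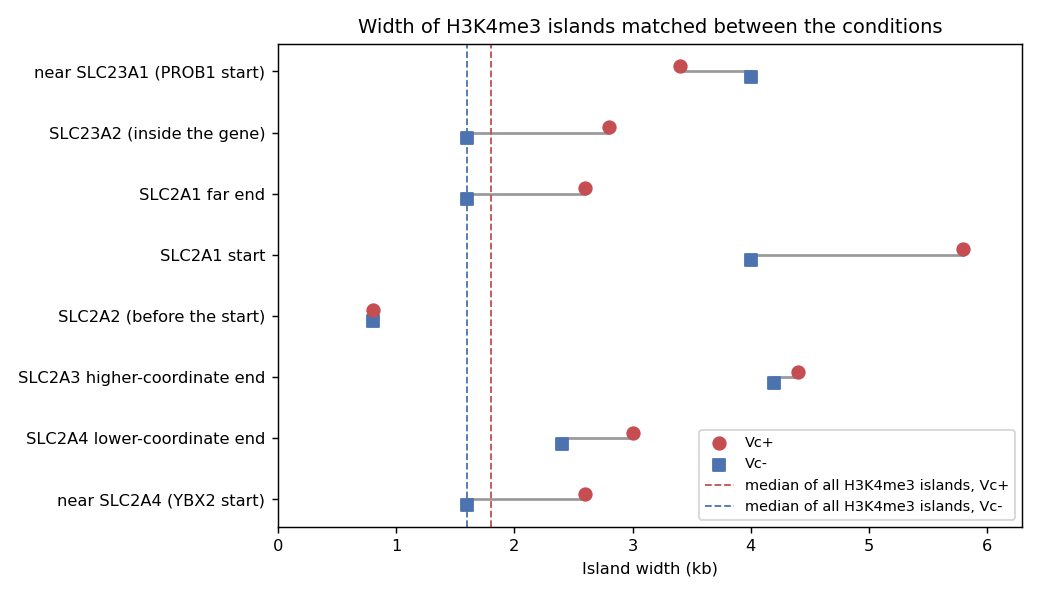
Island width (kb, horizontal axis) is shown for the 8 H3K4me3 islands matched between the conditions in the windows of the 6 transporters, with Vc+ as circles and Vc- as squares. Dashed lines are the median widths of the whole lists, 1.8 kb in Vc+ and 1.6 kb in Vc-. The widest gap is at the SLC2A1 start, 5.8 kb in Vc+ and 4 kb in Vc-, and the PROB1 island near SLC23A1 is the one that was narrower in Vc+.

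The share of each gene span under H3K4me3 gave another order. It was highest at SLC2A3, with 36.5% in Vc+ and 24.7% in Vc-, but the order of the conditions rests on the weak Vc+ island described above. With a minimum score of 10 the share was 23.5% in Vc+ and 24.7% in Vc-. SLC2A4, the shortest gene, followed with 19.6% in Vc+ and 16.6% in Vc-. At SLC2A1 the share was 10.5% in Vc+ and 7.96% in Vc-, and at SLC23A2, the longest gene, 1.77% in Vc+ and 1.01% in Vc-. SLC23A1 and SLC2A2 had none of their span covered.

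The distance to the nearest H3K27me3 island sorted the genes into 2 sets in Vc-: SLC23A1 and SLC2A4 at under 8 kb, and the other 4 at 271 kb or more. Over all genes the median distance was 73.7 kb in Vc+ and 92.5 kb in Vc-. SLC2A2, SLC23A2 and SLC2A1 were far from the mark, with 14.3%, 19.8% and 22.2% of all genes farther still in Vc+ and 16.9%, 23% and 25.5% in Vc-. SLC2A3 was the exception between the conditions, with its nearest H3K27me3 island at 44.6 kb in Vc+ and 1216 kb in Vc-. The Vc+ island ran from 7872201 to 7874600 (2.4 kb, score 12.3) and lay at the start of SLC2A14, which encodes GLUT14, a close duplicate of GLUT3 whose span ends 28 kb from SLC2A3. At that start H3K4me3 was called in both conditions, 0.8 kb wide with a score of 8.68 in Vc+ and 1.4 kb with a score of 54.4 in Vc-. H3K27me3 was called there in Vc+ alone, as at 2.64% of all genes. How reads that match both SLC2A3 and SLC2A14 were placed is not given in the sources used here, so calls at this pair are uncertain.

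**Figure D4:**
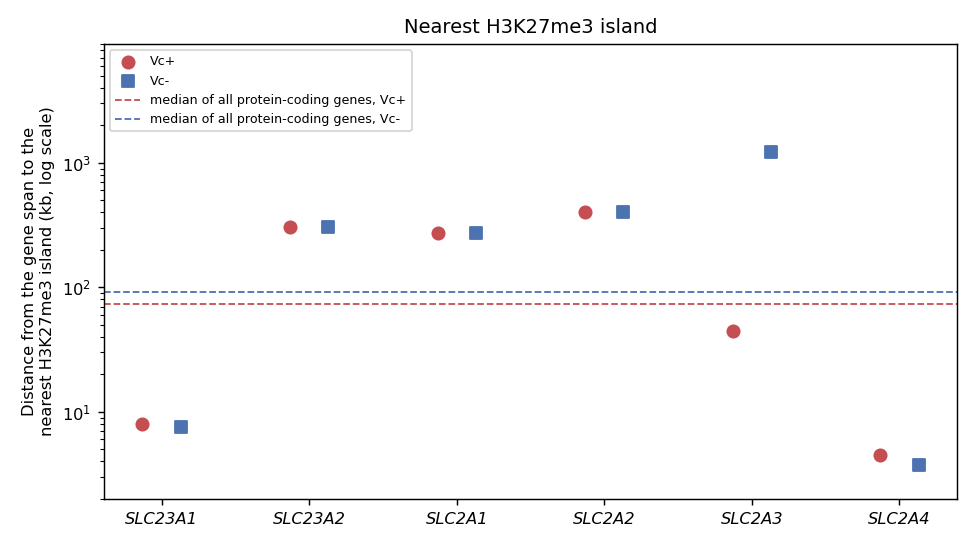
The distance from each gene span to the nearest H3K27me3 island (kb, log scale) is shown for Vc+ (circles) and Vc- (squares), with dashed lines at the median over all protein-coding genes, 73.7 kb in Vc+ and 92.5 kb in Vc-. The paired points nearly coincide for 5 genes, and SLC2A3 stands at 44.6 kb in Vc+ and 1216 kb in Vc-.

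The rest of the pathway was read at gene starts in 47 further genes. H3K4me3 was called at 31 in Vc+ and 32 in Vc-, against 71.9% and 71.5% of all genes. H3K27me3 was called at 7 in Vc+ and 6 in Vc-, against 16.4% and 15%. All 4 counts lie near these shares. A total of 26 of 47 had H3K4me3 in both conditions and H3K27me3 in neither, as did SLC2A1, SLC2A3 and SLC2A4, against 55.4% of all genes. No island of either mark was found at 12 of 47, as at SLC23A1, SLC23A2 (tested only at its span ends) and SLC2A2, against 25.8%. Among the 10 other SLC2A carriers, 7 had H3K4me3 in both conditions (SLC2A6, SLC2A8 and SLC2A10 to SLC2A14), close to the 70.7% of all genes. The SLC2A14 call in Vc+ was lost with a minimum score of 10. The other 3 had neither mark at the start, the fructose carriers SLC2A5 and SLC2A7 and the urate carrier SLC2A9. Islands of both marks touched the SLC2A9 span in both conditions, and with a start window of 2 kb its H3K4me3 was called in both. SLC23A3, the third gene of the SLC23 family, had no call at its start. None of the 5 sodium-glucose carriers had H3K4me3 at the start.

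In the ascorbate recycling and uptake support list, 9 of 11 genes had H3K4me3 in both conditions, against 70.7% of all genes, and none had H3K27me3, against 16.4% in Vc+ and 15% in Vc-. With so few genes these counts are near the shares over all genes. They include the dehydroascorbate reductases GSTO1 and GSTO2, glutaredoxin GLRX, the thioredoxin reductase TXNRD1 and the glutathione reductase GSR. RGN, which encodes regucalcin, a lactonase of ascorbate synthesis in rodents, had an H3K4me3 island of 0.6 kb (score 15.4) in Vc- alone, as at 0.786% of all genes. No pathway gene had H3K4me3 in Vc+ alone, against 1.18% of all genes. Among the genes of glucose entry and sensing, 7 of 12 had H3K4me3 in both conditions, including the hexokinases HK1 and HK2 and TXNIP, which promotes removal of GLUT1 from the cell surface. TXNIP and HIF1A, the latter from the oxygen sensing list, had the top score of 1000 in both lists, as SLC2A3 did. All 5 genes of GLUT traffic and all 3 oxygen sensing genes had H3K4me3 in both conditions, lists too short to set apart from the 70.7%.

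H3K27me3 was called in both conditions at 5 of 47 pathway genes, against 13.8% of all genes. Among them was GCKR, a liver gene of glucose metabolism, where it was 5 kb wide in Vc+ and 4.8 kb in Vc-. GCKR had no H3K4me3 within 1 kb of its start, but with a start window of 2 kb it was called in both conditions. MLXIPL (the glucose-responsive factor ChREBP), TBC1D1 (a regulator of GLUT4 traffic) and EPAS1 (HIF-2α) carried both marks in both conditions. H3K27me3 in Vc+ alone was called at SLC2A14 and at SLC5A2, the kidney carrier SGLT2, where the island was 5.6 kb wide with a score of 12.1 and another H3K27me3 island lay inside the gene in both conditions. In Vc- alone it was called at ARRDC4, an arrestin-like relative of TXNIP (3 kb, score 6.29), as at 1.25% of all genes. With a minimum score of 10 the ARRDC4 call was lost and the calls at SLC2A14 and SLC5A2 stayed.

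**Figure D5:**
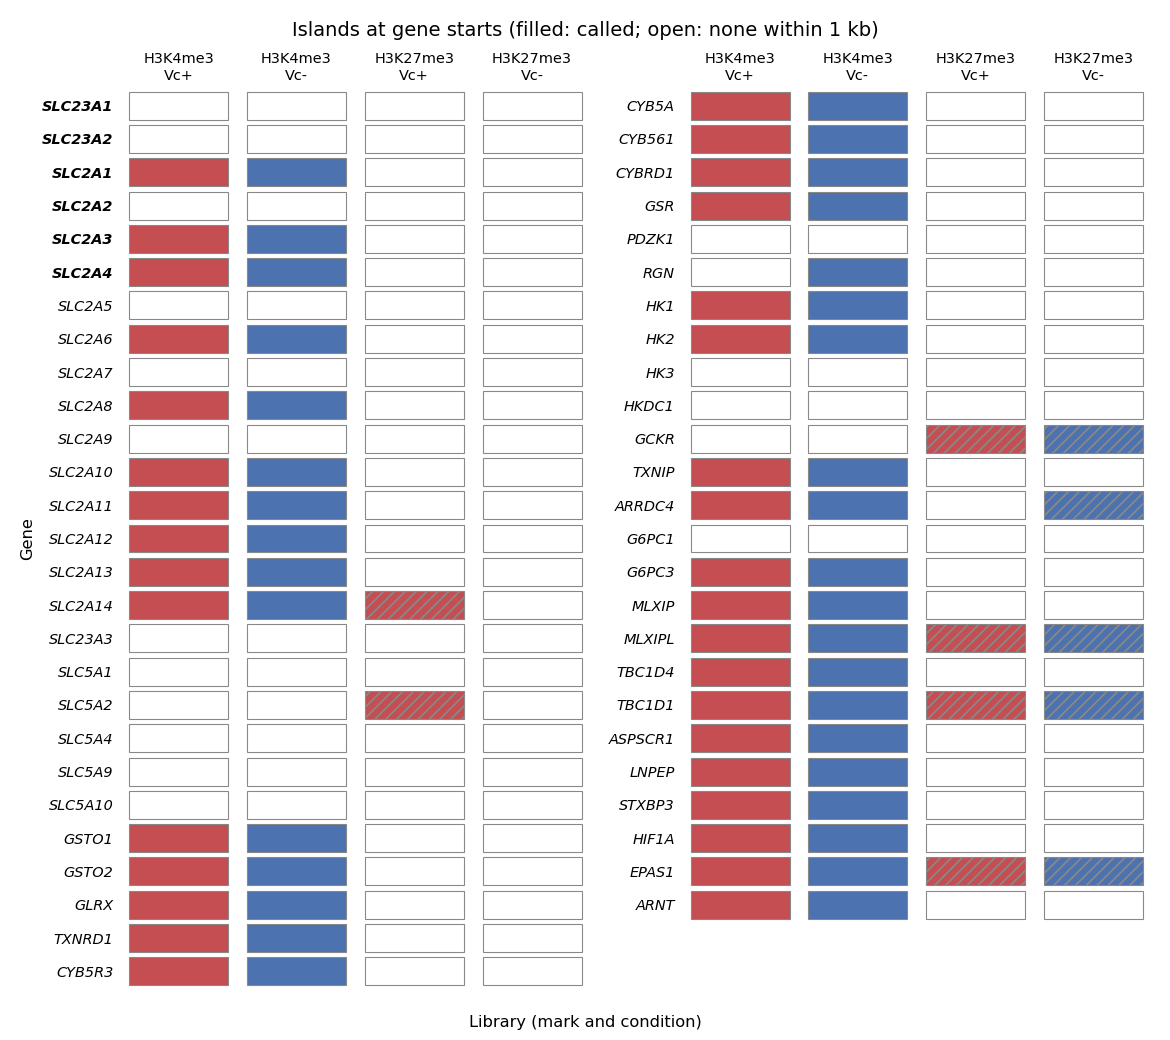
Each row is a gene, with the 6 transporters in bold and 1 pathway gene not drawn, and each column a library given by mark and condition. Filled boxes have an island within 1 kb of the gene start, hatched where the mark is H3K27me3, and open boxes have none. SLC2A1, SLC2A3 and SLC2A4 have H3K4me3 in both conditions, and none of the 6 transporters has H3K27me3.

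By the 4 start calls and the H3K4me3 width in Vc+, the pathway genes nearest to SLC2A1 (5.8 kb) were MLXIP with 6 kb, TXNIP with 5.2 kb and, tied at a difference of 1.2 kb, HIF1A with 7 kb and TBC1D4 with 4.6 kb. Their widths in Vc- were 3 kb at MLXIP, 4.8 kb at TXNIP, 5.2 kb at HIF1A and 2.8 kb at TBC1D4, beside 4 kb at SLC2A1. At SLC2A4 (3 kb) 6 genes tied at a difference of 0.2 kb: ARNT and GLRX with 3.2 kb, and ASPSCR1, CYB561, G6PC3 and HK1 with 2.8 kb. For SLC2A2, which had no island at its start, no width could be matched. Among the 31 pathway genes with H3K4me3 in both conditions, the island was wider in Vc+ at 17, narrower at 7 and equal at 7, against 57.5%, 26.2% and 16.2% of all genes called in both. The median difference was 0.2 kb, the same as over all genes, and a difference of 1 kb or more was found at 5.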

How the data were processed

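H3K4me3 and H3K27me3 were measured by chromatin immunoprecipitation and sequencing in 4 libraries, 1 per mark and condition. Per the submitters' processing notes, the tools included Bowtie2, SICER and deepTools, and the build was hg38 (GRCh38); versions and settings are not given in the sources used here. The deposited score of each island was read as −log10 of a false discovery rate, because values run from 2 to 309 and then stand at 1000. Read counts and depth are not given, so no interval could be computed. From the values, all widths are multiples of 200 bp.

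Starts count from 0 with inclusive ends in the deposited lists and are given here counted from 1. Islands and 19970 protein-coding genes of chromosomes 1 to 22 and X were used (RefSeq, GRCh38 patch 14). A call needed 1 bp of shared sequence between an island and the span with 10 kb flanks, or the 1 kb on either side of a start. Starts came from the promoter table or, for genes without an entry, from either span end, which gives those genes 2 chances. No test was made. The transporters, the 7 pathway lists and the rule for naming genes (all 6 transporters, pathway genes with H3K27me3 or a differing call, and the 3 nearest in calls and width, with ties) were chosen with earlier results of these data known. Further pathway and marker genes given as examples were picked after their calls were seen. One pathway gene is counted but not reported here by name. Alternatives covered scores, list length, overlap, windows and joining. The overlap code was tested on simulated islands and its output compared with bedtools 2.31.1, under Python 3.11.15, numpy 2.4.6 and pandas 2.3.3.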

Additional observations from a re-analysis of the deposited data

How the results depend on the processing

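No paired analysis was possible because each mark and condition was 1 library. Of 88 alternative counts of called genes, 77 stayed within 1.5 times the value reported and 11 did not. Of 94 further alternative values for single genes, 75 stayed close, 18 moved and 1 turned its direction: the share of the SLC2A3 span under H3K4me3, Vc+ minus Vc-, was 11.79 percentage points and became -1.18 with a minimum score of 10, a setting chosen after seeing the data. The start widths at equal covered length are among the 75 and could not change, since that setting drops whole islands. The count of transporters with H3K27me3 in the flanked span was 0 in Vc+ and 0 in Vc- with no flank, with a flank of 2 kb, and with islands at other genes' starts left out, since both islands belong to neighbours. With a start window of 5 kb, H3K27me3 was called at 1 transporter in Vc+ and 1 in Vc-, which is SLC2A4 reached from the YBX2 side. Requiring at least 50% of an island inside the start window left 1 transporter with H3K4me3 in Vc+ and 2 in Vc-. It left 1 pathway gene with H3K27me3 in Vc+ and 1 in Vc-. Wide islands cannot meet that rule by its construction. Using either span end as the start for all genes was chosen after seeing the data and moved no count beyond 1.5 times. Single calls did change. SLC2A14 then had no call of either mark, since its annotated start lies inside its span. H3K4me3 calls were also lost at SLC2A10 and HK1 in both conditions, and gained at SLC23A3 in both and at SLC5A4 in Vc-. The H3K4me3 call at SLC2A14 in Vc+ was lost with a minimum score of 10 and at equal covered length. How far an island edge or a call moves between cultures is not measured, and widths resolve no finer than 200 bp.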
